A study of Rattus norvegicus with 3 samples.

Results

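The miR-29 family was followed in small RNA libraries from extracellular vesicles, small membrane-bound particles shed by cells, collected from the medium of primary astrocytes of neonatal wild-type rats. Its members were taken by name: every rat-named entry whose name, without the arm suffix, is miR-29a, miR-29b, miR-29b-1, miR-29b-2 or miR-29c. This gave 3 members, rno-miR-29a-3p, rno-miR-29a-5p and rno-miR-29b-3p (the rat prefix is left out from here on), among 499 rat-named and 891 miRNA names in all, each with 1 row in every library. The rule found no rat-named entry for miR-29c-3p or for a 5p arm of miR-29b, so these were not analysed here. The astrocytes were treated from day 6 of culture for 24 h with IL-4 and complement C1q, a cytokine linked to alternative activation, or with IL-1α, TNF-α and C1q, a mixture used to make inflammatory reactive astrocytes, or were left untreated. Each of the 3 conditions had a single library and all share 1 batch label, so a ratio compares libraries, has no replicate check and carries a 95% interval for counting error only. One protocol sentence names harvested astrocytes as the RNA source, which leaves some doubt that the RNA came from vesicles.

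A microRNA is cut from a hairpin precursor whose arms, called 5p and 3p after their position, form a duplex. Usually one arm is loaded into an Argonaute protein and kept, and the other is degraded. The loaded arm finds target mRNAs mainly through its seed, bases 2 to 8. In miR-29 the 3p arm is the guide, and its well-known targets are mRNAs of collagens and other matrix proteins and of the DNA methyltransferases DNMT3A and DNMT3B. The family rises as the brain matures, is abundant in astrocytes, and in mouse neurons represses BH3-only genes, which promote cell death.

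The 3p arms are shown first because they share the seed and differ only behind it. The names of all 3 members were found among the mature sequences of RefSeq (rat build GRCr8), from which these are copied, with the seed in capitals. The last line is given for comparison of sequence only.
miR-29a-3p: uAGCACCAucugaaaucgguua
miR-29b-3p: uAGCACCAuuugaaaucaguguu
miR-29c-3p: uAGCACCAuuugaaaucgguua

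The seed AGCACCA at bases 2 to 8 was held by 3 of 693 rat mature names in that table, 0.433%, which are the 3 sequences above. Counted from 1 at the 5′ end, miR-29b-3p differed from miR-29a-3p by C10U, G18A, U21G and A22U, with 18 of the first 22 bases identical. miR-29c-3p differed from miR-29a-3p by C10U alone, so a read with that single change would match the other sequence. miR-29a-3p and miR-29a-5p lie in the Mir29a hairpin, chr4:60617955-60618042 on the minus strand of GRCr8, printed here with the 5p arm and then the 3p arm in capitals because the arm ratios below turn on it.
Mir29a: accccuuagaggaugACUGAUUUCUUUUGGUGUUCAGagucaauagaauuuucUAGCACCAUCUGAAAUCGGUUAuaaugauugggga

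miR-29b-3p has a pair of sources and cannot be assigned to either. Its sequence is in Mir29b1, which lies 291 bases from Mir29a at chr4:60618334-60618414 on the minus strand, and in Mir29b2 at chr13:109098831-109098911 on the plus strand, 447 bases from Mir29c. miR-29a and miR-29b-1 are known from human cells to be processed from one primary transcript, and miR-29b-2 and miR-29c from another.

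The deposited row names carried length tags, R-1 for miR-29a-3p and R-4 for miR-29b-3p. The sources used here do not define the tags. Read in the usual way, as bases missing from the 3′ end of the listed sequence, they give 21 and 19 bases.
miR-29a-3p, R-1: uAGCACCAucugaaaucgguu
miR-29b-3p, R-4: uAGCACCAuuugaaaucag

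The full miR-29b-3p ends in AGUGUU, an element described in human cells to direct that miRNA to the nucleus. The R-4 form lacks the last 4 of these bases, UGUU. A tag of R-4 or shorter was rare, with 6 of 525 rat-named rows (1.14%), while 82 rows had R-1 and 264 had no tag at the right end. The tag was the same in all 3 libraries, because a row has 1 name, so lengths could not be compared between them. Without its last 4 bases miR-29b-3p still differs from miR-29a-3p and miR-29c-3p, by C10U and G18A from the first and by G18A from the other.

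The libraries held 7779718 miRNA counts with IL-4/C1q, 12327301 with IL-1α/TNF-α/C1q and 6318839 untreated. CPM gives the share that a miRNA takes of its library's miRNA counts, times 1e6. The neural and astrocyte miRNAs miR-9a-5p, miR-9a-3p, miR-125b-5p, miR-181a-5p and miR-29a-3p together held 98491, 99136 and 128007 CPM in the IL-4/C1q, IL-1α/TNF-α/C1q and untreated libraries. miR-29a-3p itself supplied 20497, 22194 and 24089 CPM of this, so the sum is not separate from the family. The ratios over untreated with IL-4/C1q ranged from 0.470 for miR-9a-3p to 0.852 for miR-125b-5p. The untreated library stood apart by its epithelial miRNAs (miR-200a, miR-200b, miR-200c, miR-141 and miR-205), all 5 of which were higher there, with 27.4, 27.7 and 3189 CPM in the same order. The 3 erythroid miRNAs held 162, 158 and 1709 CPM, and the 4 neuronal ones 4574, 4823 and 8298 CPM. Of the neuronal ones, miR-124-3p was called lower in both treated libraries and miR-129-5p with IL-4/C1q only. miR-128-3p and miR-138-5p were not called. miR-138-5p had ratios over untreated of 1.34 with IL-4/C1q and 1.69 with IL-1α/TNF-α/C1q. The 5 mesenchymal miRNAs held 67138, 45695 and 17285 CPM, with 4 called higher with IL-4/C1q and 3 with IL-1α/TNF-α/C1q, and 0 lower. Both treatments are set against this 1 untreated library. Its part in the differences from it was not tested, and only the comparison of the 2 treated libraries is free of it.

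miR-29a-3p, the more abundant of the 2 guide arms measured here, was among the most abundant miRNAs of every library. It had 159459 counts (20497 CPM, interval 20397 to 20597) with IL-4/C1q, 273597 counts (22194 CPM, 22112 to 22277) with IL-1α/TNF-α/C1q and 152212 counts (24089 CPM, 23969 to 24208) in the untreated library. These are 2.05%, 2.22% and 2.41% of the miRNA counts, and the intervals do not overlap. It ranked 8 in all 3 libraries. Its neighbours were let-7c-5p (24797 CPM) and let-7b-5p (18207 CPM) with IL-4/C1q, miR-30a-5p (28894 CPM) and miR-92b-3p (21430 CPM) with IL-1α/TNF-α/C1q, and let-7b-5p (26596 CPM) and miR-92b-3p (19457 CPM) untreated.

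miR-29b-3p, the guide arm that has the same seed, was present at a far lower level. It had 5987 counts (769.6 CPM, 750.2 to 789) with IL-4/C1q, 11792 counts (957 CPM, 939 to 974) with IL-1α/TNF-α/C1q and 6979 counts (1104 CPM, 1079 to 1131) untreated. The order of the libraries was that of miR-29a-3p, lowest with IL-4/C1q and highest untreated, again with no overlap of the intervals. Its rank among rat-named miRNAs was 74, 66 and 63 in the same order. Some neighbours in rank lay inside its interval, miR-322-3p (776 CPM) with IL-4/C1q and let-7d-5p (1082 CPM) untreated. With IL-1α/TNF-α/C1q its neighbours miR-542-3p (1025 CPM) and miR-322-3p (933 CPM) lay outside it.

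miR-29a-5p, the passenger arm, had few counts in every library. It had 14 counts (1.80 CPM, 0.984 to 3.02) with IL-4/C1q, 34 counts (2.76 CPM, 1.91 to 3.85) with IL-1α/TNF-α/C1q and 46 counts (7.28 CPM, 5.33 to 9.71) untreated. The intervals of the 2 treated libraries overlap, and the untreated library lies above both. Among rat-named miRNAs it ranked 390 with IL-4/C1q, 372 with IL-1α/TNF-α/C1q and 327 untreated. Small RNA libraries capture different sequences with different efficiency, so levels of different miRNAs are only roughly comparable.

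**Figure D1:**
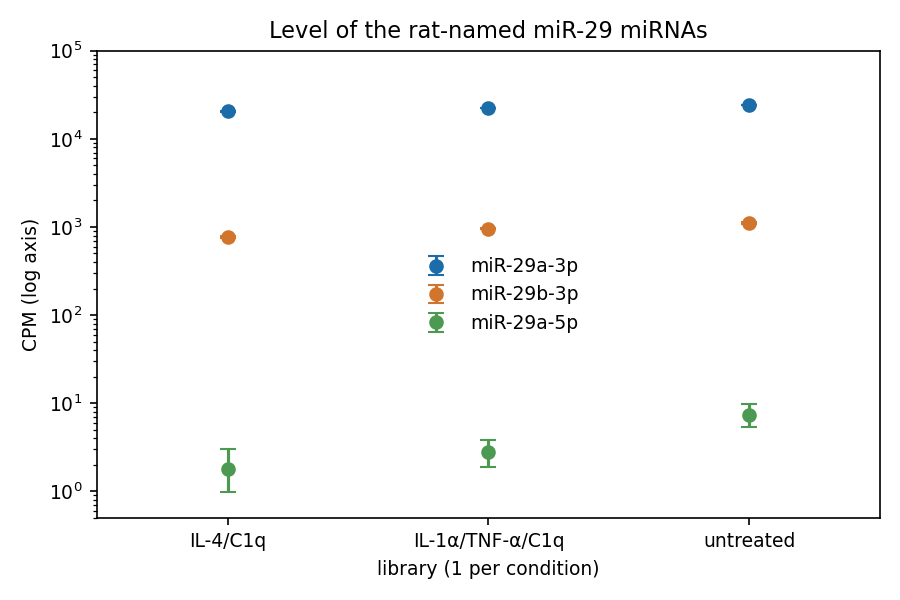
CPM on a log axis (vertical) of miR-29a-3p, miR-29b-3p and miR-29a-5p in the IL-4/C1q, IL-1α/TNF-α/C1q and untreated libraries (horizontal), 1 point per library with its exact binomial 95% interval. miR-29a-3p stays between 20497 and 24089 CPM, miR-29b-3p between 769.6 and 1104 CPM, and miR-29a-5p between 1.80 and 7.28 CPM.

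The first question was how the family in the IL-4/C1q library compared with that in the untreated library. miR-29a-3p was slightly lower with IL-4/C1q, with a ratio of shares of 0.851 (0.845 to 0.857), and miR-29b-3p was lower by more, with a ratio of 0.697 (0.673 to 0.721). Less of a miRNA in each vesicle, fewer vesicles from the cells that make it, and more of other RNA cannot be told apart in such shares. Neither member reached a 2-fold difference, the size asked here, together with an interval excluding 1, of any miRNA that reaches 50 counts in one of the 2 libraries. By that rule 0 of the 2 members tested were called, beside 36.5% of all 482 names tested and 30.5% of 354 rat-named ones.

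The ratio of miR-29a-3p lay near the middle of all miRNAs, and that of miR-29b-3p lower. The median log2 ratio was −0.16 over all names tested and −0.03 over rat-named ones, against −0.23 for miR-29a-3p and −0.52 for miR-29b-3p. Of all names tested, 45.6% had a lower ratio than miR-29a-3p and 33.0% a lower one than miR-29b-3p. The interquartile range of the rat-named miRNAs was −0.51 to 0.60, with miR-29a-3p inside and miR-29b-3p just below it.

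The same question asked of the inflammatory mixture gave smaller differences. With IL-1α/TNF-α/C1q over untreated, miR-29a-3p had a ratio of 0.921 (0.916 to 0.927) and miR-29b-3p one of 0.866 (0.841 to 0.892). Of the 2 members tested 0 were called, beside 34.9% of 505 names and 27.9% of 369 rat-named ones. On the log2 scale the members stood at −0.12 and −0.21, with a median of −0.06 over all names and 0.04 over rat-named ones. Both lay inside the interquartile range of the rat-named miRNAs, −0.45 to 0.68.

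IL-4/C1q was then set against IL-1α/TNF-α/C1q directly, which leaves out the untreated library. miR-29a-3p had a ratio of 0.924 (0.918 to 0.929) and miR-29b-3p of 0.804 (0.780 to 0.830). Of the 2 members tested 0 were called, beside 2.18% of 459 names and 1.13% of 355 rat-named ones. These 2 libraries were alike in most miRNAs, and the interquartile range of log2 ratios of the rat-named ones was only −0.22 to 0.13. miR-29a-3p stood inside that range at −0.11, and miR-29b-3p below it at −0.31, with 14.6% of all names tested lower.

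**Figure D2:**
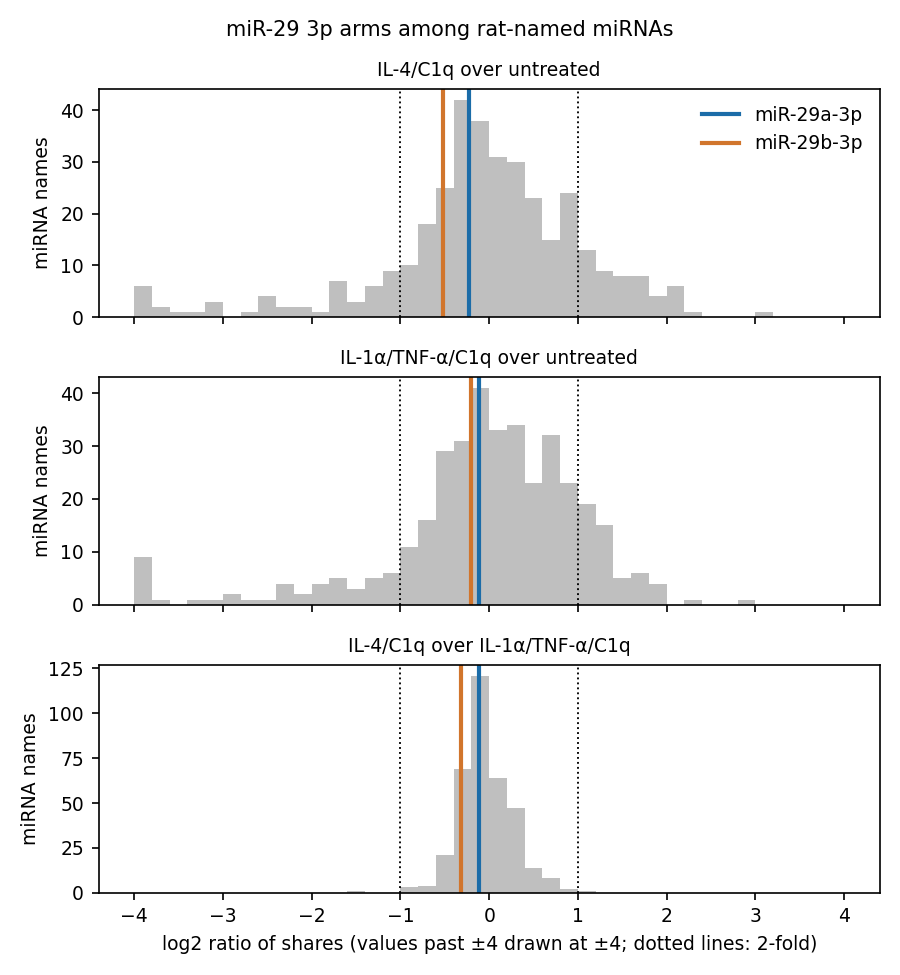
Number of rat-named miRNAs (vertical) by log2 ratio of shares (horizontal) in the 3 comparisons, with miR-29a-3p and miR-29b-3p as coloured lines and 2-fold as dotted lines. Both members lie within 2-fold in each panel, and miR-29b-3p is the lower of them each time, at −0.52, −0.21 and −0.31.

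How a library is scaled moves these small ratios. DESeq2 size factors raised every log2 ratio by 0.17 for IL-4/C1q and by 0.10 for IL-1α/TNF-α/C1q over untreated, and edgeR TMM factors by 0.13 and 0.08. Over 8 alternatives miR-29a-3p ranged between −0.25 and −0.06 with IL-4/C1q and between −0.13 and −0.02 with IL-1α/TNF-α/C1q, and miR-29b-3p between −0.54 and −0.35 and between −0.22 and −0.11. All of these values were below 0, but those of miR-29a-3p came close to it.

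**Figure D3:**
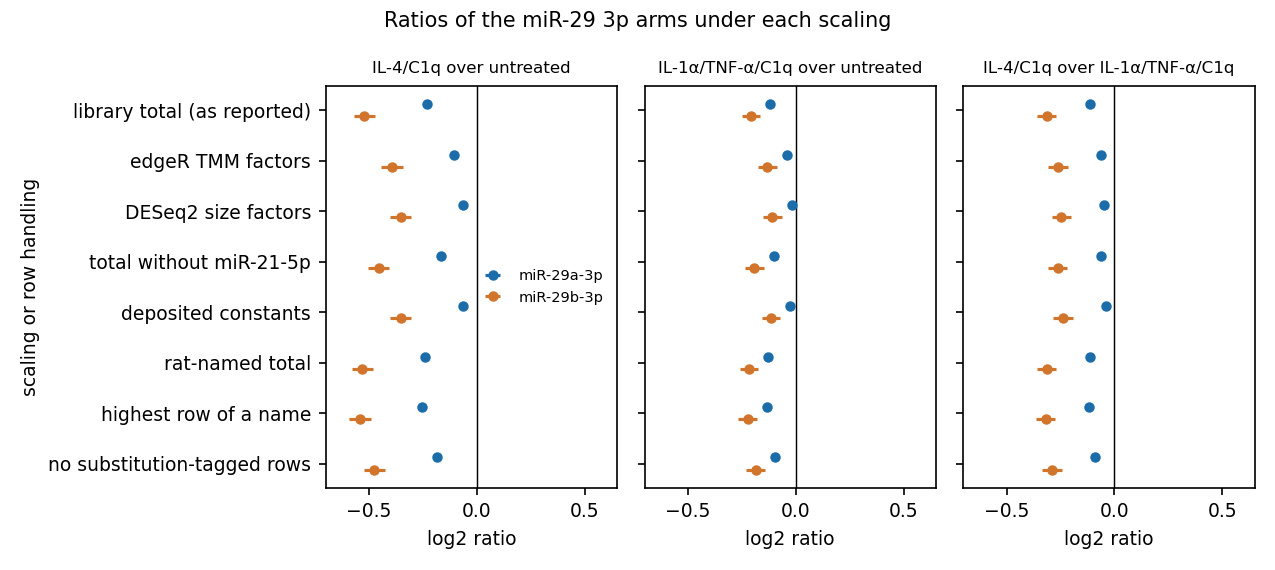
Log2 ratio of miR-29a-3p and miR-29b-3p (horizontal, with 95% counting intervals) under the library total and 7 other scalings or ways to handle rows (vertical), in the 3 comparisons. The distance between the members is the same in every line of a panel, while both move together along the axis.

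The balance of the 2 guide arms does not depend on scaling. miR-29b-3p made up 3.62% of the summed 3p arms (3.53 to 3.71) with IL-4/C1q, 4.13% (4.06 to 4.21) with IL-1α/TNF-α/C1q and 4.38% (4.28 to 4.49) untreated. miR-29a-3p was thus 26.6, 23.2 and 21.8 times as abundant as miR-29b-3p. The share of miR-29b-3p was lowest with IL-4/C1q and highest in the untreated library, and the intervals do not overlap. As odds of miR-29b-3p over miR-29a-3p, the IL-4/C1q library stood at 0.819 of the untreated one (0.790 to 0.848) and at 0.871 of the IL-1α/TNF-α/C1q one (0.844 to 0.899). The IL-1α/TNF-α/C1q library stood at 0.940 of the untreated one (0.912 to 0.969). Without replicates, no spread between cultures is known against which to read differences of this size.

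The summed 3p arms of miR-29a and miR-29b, which share the seed, followed miR-29a-3p. They held 165446 counts (2.13%) with IL-4/C1q, 285389 counts (2.32%) with IL-1α/TNF-α/C1q and 159191 counts (2.52%) untreated. The ratio was 0.844 (0.838 to 0.850) for IL-4/C1q over untreated, 0.919 (0.913 to 0.925) for IL-1α/TNF-α/C1q over untreated and 0.919 (0.913 to 0.924) for IL-4/C1q over IL-1α/TNF-α/C1q.

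Nearly all counts of the miR-29a hairpin came from its 3p arm. The 3p arm took 99.991% of both arms (99.985 to 99.995) with IL-4/C1q, 99.988% (99.983 to 99.991) with IL-1α/TNF-α/C1q and 99.970% (99.960 to 99.978) untreated. There were 11390, 8047 and 3309 counts of miR-29a-3p for each count of miR-29a-5p. Of 155 rat hairpins with both arms named, 99 had at least 10 counts of each arm in every library, a minimum set after the values were seen. Among these miR-29a ranked 1 by the log2 ratio of 3p over 5p in each library, at 13.48, 12.97 and 11.69. In 50 of the 99 hairpins the 3p arm was the larger one, so neither arm is favoured in general.

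The minimum leaves out the hairpins whose smaller arm has the fewest counts, some of which were more unequal. miR-27a had 43338, 68593 and 31010 counts of 3p and 0, 47 and 8 of 5p with IL-4/C1q, with IL-1α/TNF-α/C1q and untreated. Over all hairpins with both arms named, with counts under 5 set to 5 (also chosen after the values were seen), miR-29a ranked 1 toward 3p in both treated libraries and 2, after miR-27a, in the untreated one. In either direction it ranked 2, 2 and 4. With IL-4/C1q the place of miR-29a above miR-27a rests on the chosen value of 5, since miR-27a had 0 counts of 5p there. miR-26a, with 0, 5 and 0 counts of 3p against 88830, 137976 and 60949.5 of 5p, was the more unequal one in every library. In the untreated library miR-27a and miR-100 were more unequal too, the second with a dominant 5p arm and a log2 ratio of −11.78. Of the 99, the next hairpin after miR-29a was miR-23a in both treated libraries, with 2044 and 1846 counts of 3p for each of 5p.

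**Figure D4:**
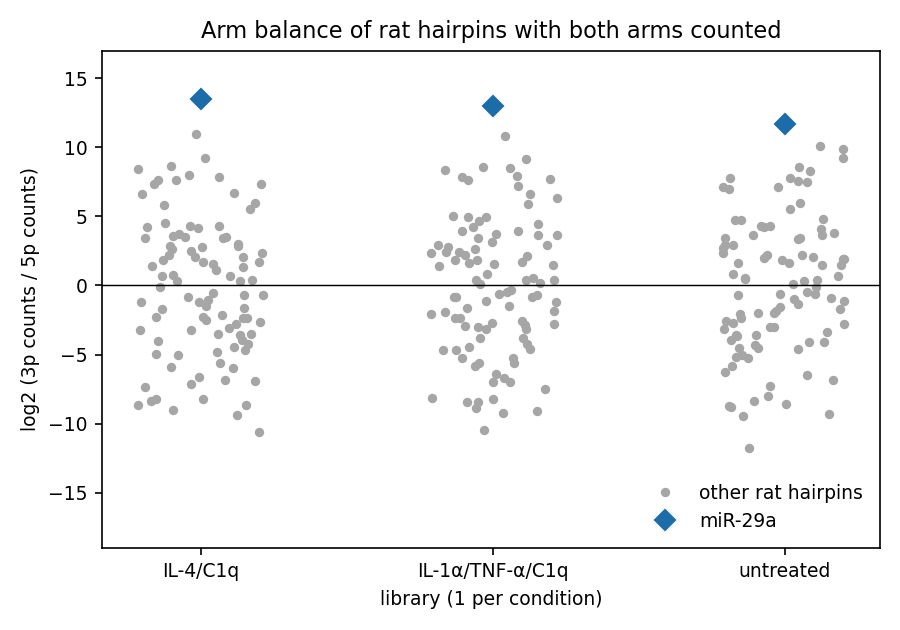
Log2 ratio of 3p over 5p counts (vertical) of the 99 rat hairpins with at least 10 counts of each arm in every library, in the IL-4/C1q, IL-1α/TNF-α/C1q and untreated libraries (horizontal), 1 point per hairpin and spread sideways only for view. miR-29a (diamonds) is the uppermost point in each library, at 13.48, 12.97 and 11.69.

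The imbalance of miR-29a was larger in both treated libraries than in the untreated one. The odds of 3p over 5p were 3.44 times as high with IL-4/C1q as untreated (1.86 to 6.78) and 2.43 times as high with IL-1α/TNF-α/C1q as untreated (1.53 to 3.91). Such a shift toward 3p, at least 2-fold with an interval excluding 1, was found in 6 of 99 hairpins (6.06%) with IL-4/C1q and in 7 of 99 (7.07%) with IL-1α/TNF-α/C1q, miR-29a among them each time. A shift in either direction was found in 15.2% and 19.2%. miR-29a had the highest odds ratio of the 99 with IL-4/C1q and ranked 4 with IL-1α/TNF-α/C1q, after miR-100, miR-324 and miR-542. It rests on the small 5p counts, 14, 34 and 46 counts in the IL-4/C1q, IL-1α/TNF-α/C1q and untreated libraries.

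Taken alone, miR-29a-5p had a ratio of 0.247 (0.126 to 0.458) for IL-4/C1q over untreated and of 0.379 (0.236 to 0.603) for IL-1α/TNF-α/C1q over untreated. It stayed under the minimum of 50 counts in every library, so it was not tested by the size rule. At a minimum of 10 counts it would be the 1 member called, lower, in each of these comparisons. Beside it, 32.4% of 672 names of any species prefix were called lower with IL-4/C1q and 31% of 694 with IL-1α/TNF-α/C1q. A fall of this kind was thus common among names of all prefixes with few counts included. The share of rat-named miRNAs called lower was not computed at that minimum. At 50 counts it was 15% with IL-4/C1q and 12.5% with IL-1α/TNF-α/C1q. Between the treated libraries the odds ratio was 1.42 (0.740 to 2.86) and the share ratio 0.652 (0.323 to 1.25), both with an interval that includes 1. A shift of 2-fold between them, in either direction, was found in 0 of 99 hairpins (0%).

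Other 5p arms of the family were listed under names of other species, which say to what database entry the reads matched and not from what organism they came. The mouse-named mmu-miR-29b-1-5p, the passenger arm of the miR-29b hairpin beside miR-29a, had 21 counts with IL-4/C1q, 28 with IL-1α/TNF-α/C1q and 14 untreated. As shares these were 2.70, 2.27 and 2.22 CPM, within counting error of each other. The guinea pig-named cpo-miR-29b-2-5p, from the other miR-29b hairpin, had 0, 0 and 46 counts. Against a floor of 5 counts in the library at 0, it was at least 11.3-fold lower with IL-4/C1q and at least 17.9-fold lower with IL-1α/TNF-α/C1q than untreated. A count of 0 was common: it began at rank 647 of 891 names with IL-4/C1q and at rank 691 with IL-1α/TNF-α/C1q. How many of those names had counts in the untreated library was not computed. The Chinese hamster-named cgr-miR-29c-5p had 0, 15 and 15 counts.

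Summed over the 4 names, the 5p arms held 35 counts (4.50 CPM) with IL-4/C1q, 77 counts (6.25 CPM) with IL-1α/TNF-α/C1q and 121 counts (19.1 CPM) untreated. They were 4.26-fold (2.90 to 6.39) and 3.07-fold (2.28 to 4.13) lower in the IL-4/C1q and IL-1α/TNF-α/C1q libraries than untreated. Without cpo-miR-29b-2-5p, which has counts in the untreated library alone, the values were 2.64-fold (1.74 to 4.06) and 1.90-fold (1.36 to 2.65). With the 5p arms of both miR-29b hairpins taken from these names, the 3p arm of miR-29b held 99.7% (99.5 to 99.8), 99.8% (99.7 to 99.8) and 99.1% (98.9 to 99.3) of both arms with IL-4/C1q, with IL-1α/TNF-α/C1q and untreated. One more 3p row, the guinea pig-named cpo-miR-29b-3p, had 15, 13 and 17 counts.

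Many abundant miRNAs had a pattern like that of miR-29a-3p. Likeness was measured over the 3 libraries as the distance between pairs of log2 ratios to the untreated library, among 99 rat-named miRNAs with at least 10000 counts in all, the family included. The nearest were miR-22-3p (distance 0.074), miR-340-5p (0.075), miR-674-3p (0.083), miR-34c-5p (0.091) and miR-148b-3p (0.093). miR-29b-3p was farther off, at 0.30, and 26 miRNAs lay within 0.25. miR-22-3p held 11590, 11841 and 12942 CPM with IL-4/C1q, with IL-1α/TNF-α/C1q and untreated.

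Of 11 miRNAs linked to fibrosis and matrix 10 were measured, and the list did not lean one way. In both comparisons with the untreated library 2 were called higher, miR-199a-3p and miR-199a-5p, and 1 lower, the muscle miRNA miR-133a-3p. The 2 higher ones are the 3p and 5p arms of miR-199a, which is abundant in fibroblasts, and are also among the mesenchymal miRNAs given above. Of all rat-named miRNAs tested, 15.5% were called higher and 15% lower with IL-4/C1q, and 15.4% and 12.5% with IL-1α/TNF-α/C1q. The list's median log2 ratio was 0.06 with IL-4/C1q and 0.03 with IL-1α/TNF-α/C1q. miR-21-5p, which promotes fibrosis in several organs, had ratios of 1.08 with IL-4/C1q and 1.02 with IL-1α/TNF-α/C1q. miR-26a-5p had ratios of 1.18 and 1.16 and miR-30c-5p of 0.666 and 0.713, in the same order. miR-199a-3p had ratios of 3.45 and 3.003.

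The second list held miRNAs that, like miR-29, are known to target DNA methyltransferases. Of 5 listed, 4 were measured, and 0 were called in any comparison, beside 30.5%, 27.9% and 1.13% of rat-named miRNAs for IL-4/C1q over untreated, IL-1α/TNF-α/C1q over untreated and IL-4/C1q over IL-1α/TNF-α/C1q. With 4 members, little can be read from that count. Over untreated, miR-148a-3p had ratios of 0.577 with IL-4/C1q and 0.552 with IL-1α/TNF-α/C1q, and miR-152-3p, which has the same seed, of 1.74 and 1.67. miR-148b-3p had 0.875 and 0.976, and miR-101b-3p 1.06 and 1.18. Summed, the 4 held 13411, 13728 and 13767 CPM in the IL-4/C1q, IL-1α/TNF-α/C1q and untreated libraries.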

How the data were processed

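Small RNA was sequenced on an Illumina instrument, per the labels' protocols, with 1 library per condition. Which aligner, counter, database version and build were used is not given in the sources used here. The deposited estimated counts, which the file headers call raw, were used. They are not all whole (151, 140 and 237 of 1480 rows held fractions in the IL-4/C1q, IL-1α/TNF-α/C1q and untreated files, tolerance 1e-06). The deposited signal, called norm in the headers, is the count multiplied by 1 constant in each file (1.14, 0.684 and 1.25) and served only as an alternative scaling. How the authors set the constants is not stated.

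Rows were summed by the name in front of its tags, so rows with a substitution tag joined their name. Predicted candidates (0.034%, 0.036% and 0.066% of counts) were left out. Counts were rounded for intervals. Shares have Clopper-Pearson intervals, ratios exact conditional binomial ones and odds ratios exact conditional ones (Python 3.11.15, scipy 1.17.1). All are at 95% and for counting error only. They treat each count as independent, which PCR copies are not, so they can be too narrow even for that. Log2 ratios over all names used CPM + 1. The size rule and the interval code were tested on simulated data that held counting error only, with no spread between cultures. The floor of 5 counts was set after the values were seen: among whole values of rows with a unique name, 7 of 663, 9 of 753 and 15 of 935 were smaller. Scaling alternatives used edgeR 4.0.16 and DESeq2 1.42.0 (R 4.3.3).

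Named were every member, the 5 nearest patterns and the 4 most abundant of each context list. Chosen after their values were seen were list members past the size rule and the other neuronal miRNAs. So were neighbours in rank and in arm balance, and the rows of other species. The members and lists were chosen with earlier results of these data known.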

Additional observations from a re-analysis of the deposited data

How the results depend on the processing

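The direction of the summed 3p arms, below 1 in all 3 comparisons, was the same under all 8 alternatives, and 0 values reversed. For IL-4/C1q over untreated the ratio was 0.923 with edgeR TMM factors, 0.948 with DESeq2 size factors, 0.884 with totals without miR-21-5p, 0.949 with the deposited constants, 0.833 with the highest row of each name and 0.872 without substitution-tagged rows. For IL-1α/TNF-α/C1q over untreated these were 0.969, 0.985, 0.929, 0.9798, 0.909 and 0.933. For IL-4/C1q over IL-1α/TNF-α/C1q they were 0.952, 0.963, 0.951 and 0.968 with the first 4 alternatives and 0.935 without substitution-tagged rows. Rat-named totals and pooling of species left each ratio inside its interval. The count of members past the size rule was 0 under each alternative but a minimum of 10 counts, which gave 1 (miR-29a-5p, lower) in each comparison with the untreated library. At a minimum of 5 counts per arm, chosen after the data were seen, 111 hairpins were tested, and miR-29a ranked 2 with IL-4/C1q and 5 with IL-1α/TNF-α/C1q in the shift toward 3p. The number of hairpins shifted between the treated libraries was then 1. The 3p share of miR-29a had the same value under each way to handle rows. That of miR-29b had no rat-named 5p arm and is given only with names of other species, and that of miR-29c was not analysed here. No paired analysis was possible because each condition has 1 library. No library could be left out of its own group. Counts of 14 to 46 limit every statement on miR-29a-5p.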
